A study of Pinus pinaster with 8 samples.

Results

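The 8 clones described here encode enzymes that supply methyl groups and S-adenosylmethionine (SAM) in developing xylem of maritime pine (Pinus pinaster). They are 3 clones of methionine synthase (MS), 1 of SAM synthetase (SAMS), 2 of cytosolic serine hydroxymethyltransferase (cSHMT), 1 of mitochondrial serine hydroxymethyltransferase (mSHMT) and 1 of 3-phosphoglycerate dehydrogenase (PHGDH), among 2910 spots of a cDNA microarray. They were chosen by the study's own comparison of compression xylem (Cx) with opposite xylem (Ox) on these slides, so that their Cx/Ox ratios are given as a description, with no p-value, and their calls support nothing. Cx came from the underside and Ox from the upper side of stems of 4 field-grown trees from Sierra Bermeja in Spain, aged 25 to 35 years and bent at an angle of 45° for 2 months before the developing secondary xylem was scraped off with a scalpel. The bent stem was the source of both tissues, and xylem of an upright tree was not part of the comparison.

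The microarray carries PCR-amplified inserts of a pine xylem cDNA library, and each slide was hybridized with an amplified Cx target and an amplified Ox target, one labelled with Cy3 and the other with Cy5. The slides fall into 2 groups by dye, one with Cx in Cy3 and Ox in Cy5 (hybridizations 1 and 2) and one with Ox in Cy3 and Cx in Cy5 (hybridizations 3 and 4). The labels number the 4 columns of each dye orientation as 4 trees, whereas the columns paired as the 2 copies of the array on a slide, with correlations across spots of 0.97 to 0.98 within a pair and 0.84 to 0.87 between slides of one orientation. The copies were averaged, n is therefore 4 hybridizations, and which tree gave which hybridization is not settled. Dye orientation and the trees behind it cannot be told apart. Values are log2(Cx/Ox), positive where the transcript was more abundant in Cx. Only ratios were analysed, so that depth is expressed by the number of arrays, levels in Cx and in Ox are not given. The labelled tissues were not checked against marker genes. In a bulk tissue sample, fewer cells of a type and less RNA per cell cannot be told apart.

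SAM is the methyl donor of most biological methylations, including those that put methoxyl groups on the precursors of lignin and lignans in wood-forming cells. MS transfers a methyl group from a folate cofactor to homocysteine and so makes methionine, and SAMS joins methionine to the adenosyl part of ATP. The methyl group itself comes largely from serine, whose side-chain carbon is passed to tetrahydrofolate by serine hydroxymethyltransferases in the cytosol and in mitochondria. PHGDH catalyses the first step of the plastid route to serine. Compression wood of conifers forms on the lower side of leaning stems and is rich in lignin.

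The study's single-pass reads show where in each enzyme the sequenced part of a clone lies, and the stretches that carry this are given 5′ to 3′. The reads of the 3 MS clones come from different parts of the coding sequence. How far the printed inserts run past the reads is not given, so whether the probes overlap was not tested. In GEM-005-D11 the first reading frame held no stop codon over all 399 bases available, and its first 150 bases, from the amino-terminal domain of the enzyme, are shown without capitals. In GEM-006-C05 the first frame held no stop codon over all 363 bases, and capitals mark 6 codons in a conserved block of the cobalamin-independent enzyme found in plants. In GEM-055-C03 capitals mark the codon of a conserved cysteine that binds the catalytic zinc, and the stop codon that begins at base 298 of the read.
GEM-005-D11: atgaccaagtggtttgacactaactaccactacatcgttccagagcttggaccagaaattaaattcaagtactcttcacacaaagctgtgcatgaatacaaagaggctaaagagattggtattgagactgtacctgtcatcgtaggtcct
GEM-006-C05: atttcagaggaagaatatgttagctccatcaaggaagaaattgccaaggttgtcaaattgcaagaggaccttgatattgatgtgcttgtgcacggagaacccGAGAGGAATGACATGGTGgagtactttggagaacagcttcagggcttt
GEM-055-C03: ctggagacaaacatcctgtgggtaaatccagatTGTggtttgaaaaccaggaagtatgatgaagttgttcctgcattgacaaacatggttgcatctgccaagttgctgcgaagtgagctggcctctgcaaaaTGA

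In the SAMS clone GEM-001-A11 the coding sequence begins at base 63 of the read. Capitals mark the start codon and the codon of a conserved histidine of the active site of SAM synthetases. In the cSHMT clone GEM-094-C06 capitals mark the codon of the conserved lysine that binds the pyridoxal phosphate cofactor.
GEM-001-A11: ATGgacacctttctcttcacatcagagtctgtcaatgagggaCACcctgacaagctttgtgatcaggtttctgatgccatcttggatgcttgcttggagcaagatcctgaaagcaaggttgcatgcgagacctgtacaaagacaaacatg
GEM-094-C06: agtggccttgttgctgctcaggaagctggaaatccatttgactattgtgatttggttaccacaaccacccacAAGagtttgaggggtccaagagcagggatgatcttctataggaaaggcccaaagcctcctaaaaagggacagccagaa

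The other cSHMT clone, GEM-063-B02, and the mSHMT clone GEM-029-B01 overlap in the same part of the enzyme, so that the cytosolic and the mitochondrial transcript can be set side by side. Capitals mark the bases that differ between them in an alignment without gaps.
GEM-063-B02: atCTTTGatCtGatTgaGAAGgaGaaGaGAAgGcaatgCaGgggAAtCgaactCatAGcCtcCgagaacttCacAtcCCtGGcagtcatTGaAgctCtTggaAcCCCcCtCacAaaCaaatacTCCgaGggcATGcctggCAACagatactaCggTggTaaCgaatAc
GEM-029-B01: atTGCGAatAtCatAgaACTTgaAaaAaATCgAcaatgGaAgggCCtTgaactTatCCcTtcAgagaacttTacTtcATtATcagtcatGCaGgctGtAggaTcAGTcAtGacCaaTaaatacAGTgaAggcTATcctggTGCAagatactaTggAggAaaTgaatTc

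Of these 168 aligned bases, 105 were identical (62.5%), and 37 of the 63 differences lay at the third position of a codon. The encoded residues were identical at 37 of 56 positions (66.1%), and the longest run of shared bases was 8. The 2 cSHMT clones were assembled by the study into the same contig, and on that ground they are read here as 2 probes for the same transcript. The bases available from them share no word longer than 9 bases, and whether they come from separate gene copies was not tested. Across all 28 pairs of the 8 clones, the longest word shared by the bases available was 12 bases on either strand. The rest of the inserts was not compared, and a printed cDNA can bind transcripts of close gene copies, which was not tested.

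All 8 clones had a higher ratio in Cx on every one of the 4 hybridizations, so that the 32 values were all above 0, between 0.45 and 2.66. The mean log2(Cx/Ox) of a clone lay between 0.77 and 2.47, with a median of 1.47 (2.77-fold), beside a median of -0.01 over all 2910 spots. By mean, the clones ranked between 8 and 194 among the 2910 spots from the top. A spot was called where the robust limma model gave a Benjamini-Hochberg adjusted p no higher than 0.05 and a change of at least 1.5-fold, and 8 of 8 clones were called higher in Cx, beside 9.14% of all spots. The study chose the clones on this contrast, so nothing is read from that count.

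**Figure D1:**
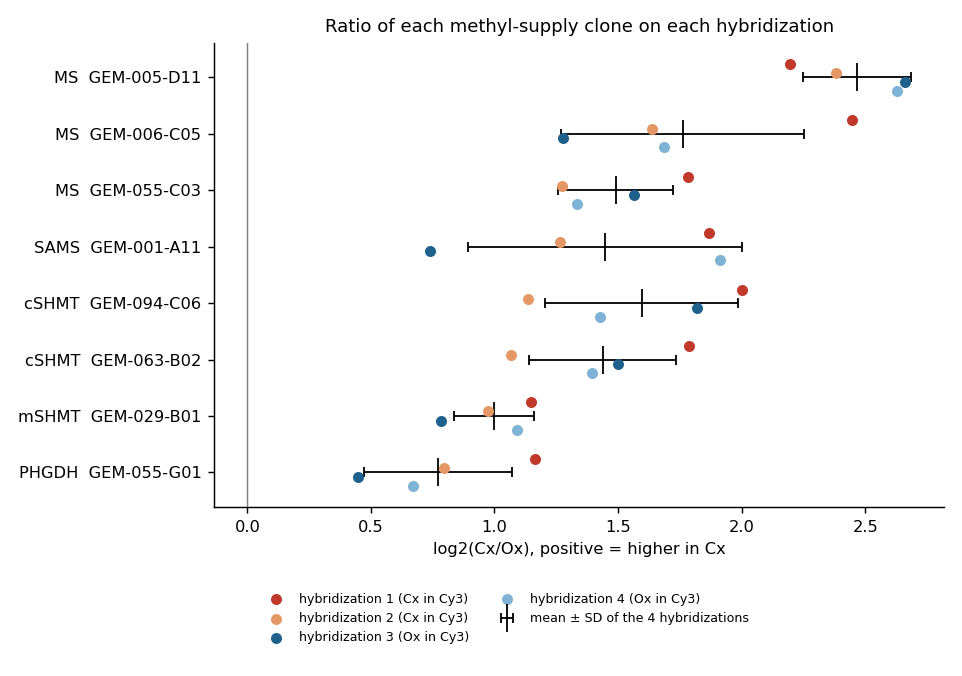
The log2(Cx/Ox) of each of the 8 clones on each of the 4 hybridizations (coloured points, x axis), with the mean and SD in black. All points lie right of 0, between 0.45 and 2.66.

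**Figure D2:**
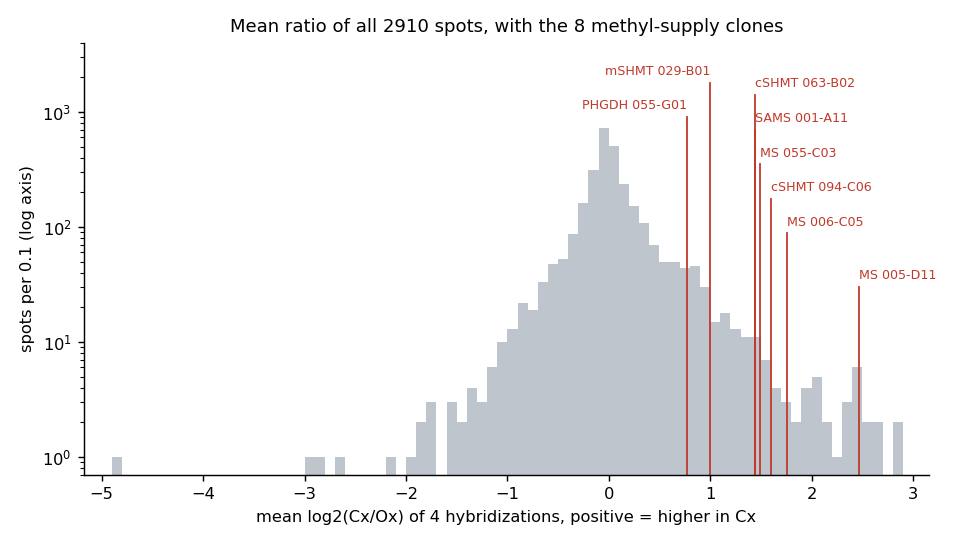
Number of spots by mean log2(Cx/Ox) over the 4 hybridizations (x axis, in bins of 0.1, with a log y axis) for all 2910 spots, with red lines at the 8 clones. The lines lie between 0.77 and 2.47 in the right tail, while the median of all spots was -0.01.

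MS had the clone with the highest ratio of the 8. GEM-005-D11 had log2(Cx/Ox) values of 2.20 and 2.38 with Cx in Cy3, and of 2.66 and 2.63 with Ox in Cy3. Its mean was 2.47 ± 0.22 (SD, n = 4 hybridizations), a 5.53-fold higher abundance in Cx than in Ox, and 7 of the 2910 spots had a higher mean. The values of this clone were the most even of the MS clones, with folds between 4.58 and 6.32 on the single hybridizations.

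GEM-006-C05, whose read lies in the part that starts the carboxy-terminal domain of MS, had values of 2.45 and 1.64 with Cx in Cy3 and of 1.28 and 1.69 with Ox in Cy3. Its mean was 1.76 ± 0.49 (SD, n = 4), 3.39-fold, and hybridization 1 stood above the other 3. The robust estimate, which gives less weight to that hybridization, was 1.68, whereas mean and robust estimate were equal at 2 decimals for the other 7 clones. GEM-055-C03, whose read holds the 3′ end of the MS coding sequence, had values of 1.78, 1.27, 1.57 and 1.34 on hybridizations 1 to 4. Its mean was 1.49 ± 0.23 (SD, n = 4), or 2.81-fold.

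The MS clones therefore did not share one ratio. GEM-005-D11 exceeded GEM-055-C03 on each hybridization, by 0.41 to 1.29 on the log2 scale (mean 0.98 ± 0.39, SD, n = 4). It exceeded GEM-006-C05 on 3 of the 4 hybridizations and lay 0.25 below it on hybridization 1, so that their mean difference of 0.71 was about as large as its SD of 0.69. These are differences between ratios and not between transcript levels, and the reads do not settle how many MS genes the 3 probes represent.

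The clone for SAMS, the enzyme that makes SAM, varied most between hybridizations by its SD. The MS clone GEM-006-C05 came close, with an SD of 0.49 and the same range of 1.17 at 2 decimals. GEM-001-A11 had values of 1.87 and 1.26 with Cx in Cy3, and of 0.74 and 1.91 with Ox in Cy3. Its mean was 1.45 ± 0.56 (SD, n = 4), 2.72-fold, the highest SD of the 8 clones beside a median SD of 0.30 among them. The single hybridizations ran between 1.67-fold and 3.76-fold, with hybridization 3 the lowest and hybridization 4, of the same dye orientation, the highest. The 2 copies of the spot on a slide differed by 0.08 at most, far less than the 1.17 between those slides.

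The 2 cSHMT probes, for an enzyme that draws one-carbon units from serine in the cytosol, gave like profiles. GEM-094-C06 had values of 2.00 and 1.13 with Cx in Cy3 and of 1.82 and 1.43 with Ox in Cy3, a mean of 1.60 ± 0.39 (SD, n = 4) or 3.02-fold. GEM-063-B02 had values of 1.79 and 1.07 with Cx in Cy3 and of 1.501 and 1.40 with Ox in Cy3, a mean of 1.44 ± 0.30 (SD, n = 4) or 2.71-fold. Both probes were highest on hybridization 1 and lowest on hybridization 2. GEM-094-C06 exceeded GEM-063-B02 on all 4 hybridizations, by 0.03 to 0.32, with a mean difference of 0.16 ± 0.13 (SD, n = 4). This mean difference was a little larger than its own SD, and less than the SD of either probe between hybridizations.

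The probe for mSHMT, which in leaves works with glycine decarboxylase in photorespiration, had a smaller ratio than both probes for its cytosolic counterpart. GEM-029-B01 had values of 1.15 and 0.97 with Cx in Cy3 and of 0.78 and 1.09 with Ox in Cy3. Its mean was 1.00 ± 0.16 (SD, n = 4), 2.00-fold, and its SD was the lowest of the 8 clones. Each cSHMT probe exceeded it on every hybridization, GEM-094-C06 by 0.16 to 1.04 (mean 0.60 ± 0.42) and GEM-063-B02 by 0.09 to 0.72 (mean 0.44 ± 0.29; SD, n = 4 each). Both probes came nearest to mSHMT on hybridization 2. Whether the difference lies in the transcripts or in the probes was not tested.

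PHGDH, at the head of plastid serine synthesis, had the smallest ratio of the 8. GEM-055-G01 had values of 1.17 and 0.80 with Cx in Cy3, and of 0.45 and 0.67 with Ox in Cy3. Its mean was 0.77 ± 0.30 (SD, n = 4), 1.71-fold, with single hybridizations between 1.37-fold and 2.24-fold. It was the only clone of the 8 that fell short of 1.5-fold on a single hybridization, and both hybridizations with Cx in Cy3 lay above both with Ox in Cy3. The call was lost without hybridization 2 (estimate 0.76) and on the slides with Ox in Cy3 alone (0.56, below 1.5-fold).

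The mean ratio on which the clones were chosen does not contain the difference between slides of one dye orientation, that is hybridization 1 against 2 and 3 against 4. The choice is still not blind to it, because spread between slides was part of the error in the test that selected the clones and the other called spots. It was tested with limma, taking the spread between copies of a spot as the error, so that its p-values cover the spread between copies alone. Copies of the 8 clones differed by a median of 0.07 and at most 0.19, beside a median of 0.05 over all spots. All 8 clones differed between slides by more than between copies (adjusted p between 1.8e-06 and 0.037 in limma's moderated F test over 2910 spots). This also held for 60.4% of all spots and for 89.5% of the 258 other spots called higher in Cx, so that a difference between slides is common on these arrays.

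The ratio was higher on hybridization 1 than on hybridization 2 for 7 of the 8 clones, by 0.17 to 0.87 on the log2 scale. The exception was GEM-005-D11, which was 0.19 lower on hybridization 1. Among the 258 other spots called higher in Cx, 70.5% were higher on hybridization 1 than on hybridization 2. Tested on the Cx in Cy3 slides alone, 7 of the 8 clones differed between the slides, beside 35.8% of all spots. GEM-029-B01 did not pass (adjusted p = 0.085, limma, 2 slides with 2 copies each). The 258 other spots called higher in Cx were not counted apart for either orientation alone. The clones are therefore set against all spots only in the tests of a single orientation.

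Between hybridizations 3 and 4 the clones split, 4 being higher on each, while 61.2% of the 258 other spots called higher in Cx were higher on hybridization 3. On the Ox in Cy3 slides alone, 6 of the 8 clones differed between the slides, beside 42.2% of all spots. SAMS differed by far the most, 1.17 higher on hybridization 4 (adjusted p = 0.00011 on the Ox in Cy3 slides alone, limma). GEM-006-C05 was 0.41 higher and mSHMT 0.31 higher on hybridization 4, while GEM-094-C06 was 0.39 higher on hybridization 3. GEM-005-D11 (adjusted p = 0.66) and GEM-063-B02 (adjusted p = 0.17) did not pass the limma test on these slides.

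**Figure D3:**
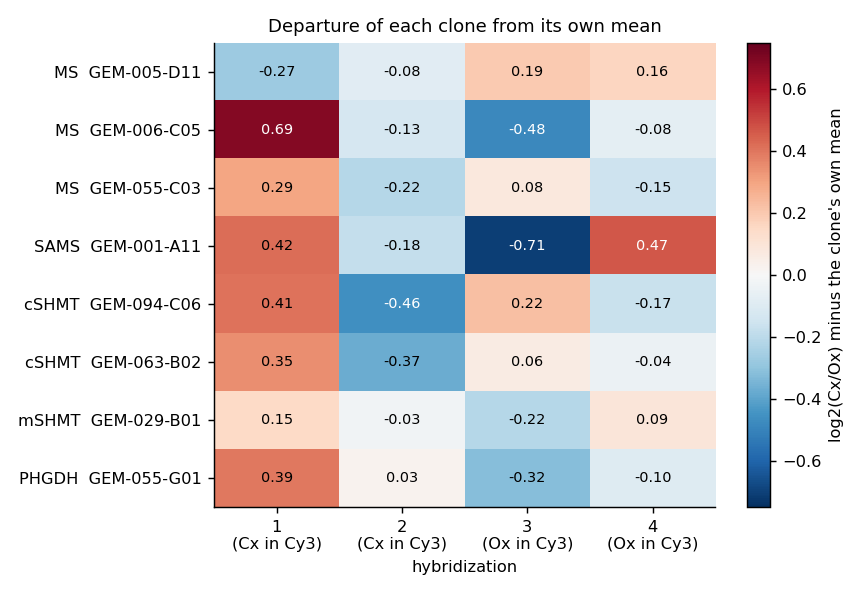
Departure of each of the 8 clones (rows) from its own mean log2(Cx/Ox) on each of the 4 hybridizations (columns), with the value in each cell and red above and blue below the mean. Hybridization 1 was the highest for 6 clones, the exceptions being GEM-005-D11 and GEM-001-A11, whose lowest cell is hybridization 3 at -0.71.

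Seen over all 4 hybridizations, 6 clones had their highest value on hybridization 1 and none on hybridization 2. The lowest value fell on hybridization 3 for 4 clones (GEM-006-C05, SAMS, mSHMT and PHGDH) and on hybridization 2 for 3 clones (GEM-055-C03 and both cSHMT probes), and GEM-005-D11 was lowest on hybridization 1. The median of the 8 clones was 1.83, 1.20, 1.39 and 1.41 on hybridizations 1 to 4. The 258 other spots called higher in Cx had medians of 1.06, 0.87, 0.96 and 0.86 on the same slides, and 45.3% of them had their highest value on hybridization 1.

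The dye effect cancels in that mean, although it too was part of the error in the test that selected the clones. It is here the part of log2(Cx/Ox) that changes sign when the dyes are swapped, which is 0.5 times the difference between orientations (positive where the ratio was higher with Ox in Cy3). For the 8 clones it lay between -0.28 for GEM-006-C05 and 0.18 for GEM-005-D11. GEM-006-C05 averaged 2.04 with Cx in Cy3 and 1.48 with Ox in Cy3, and PHGDH averaged 0.98 with Cx in Cy3 and 0.56 with Ox in Cy3, a dye effect of -0.21. GEM-005-D11 went the other way, with 2.29 for Cx in Cy3 and 2.64 for Ox in Cy3. The cSHMT probe GEM-094-C06 averaged 1.57 with Cx in Cy3 and 1.62 with Ox in Cy3, and GEM-063-B02 averaged 1.43 with Cx in Cy3 and 1.45 with Ox in Cy3. The median size of the dye effect was 0.09 for the 8 clones and also 0.09 for the 258 other spots called higher in Cx, beside 0.12 for all spots. None of the 8 clones passed limma's test of the dye effect (adjusted p between 0.096 and 0.96). This test called 0% of the 2910 spots, although 1091 spots (37.5%) and 1 of the 8 clones, GEM-005-D11, had an unadjusted p of at most 0.05, and the smallest adjusted p of any spot was 0.063. What size of dye effect these slides could show was not tested, and the absence of one is not shown.

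**Figure D4:**
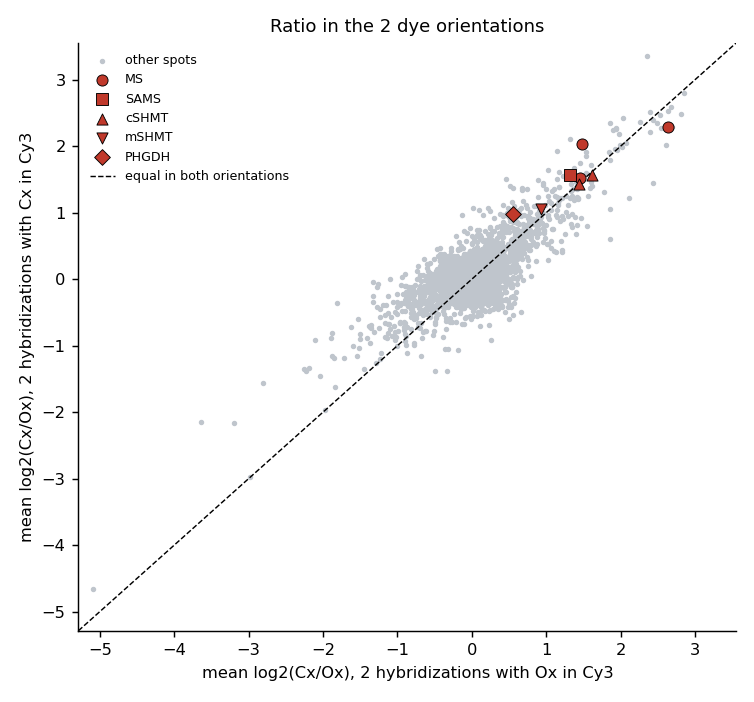
Mean log2(Cx/Ox) of the 2 hybridizations with Cx in Cy3 (y axis) against the 2 with Ox in Cy3 (x axis) for all spots in grey and the 8 clones in red, with a dashed line of equal values. The clones lie between 0.98 and 2.29 on the y axis and between 0.56 and 2.64 on the x axis, on both sides of the line.

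Clones for neighbouring steps were taken from the study's list of called clones, whatever their value here. That list holds no clone without a change and was made on these slides, so that it gives no independent count. Of 7 such clones, 5 were called higher in Cx and 1 higher in Ox in limma's robust fit, beside 9.14% and 3.33% of all spots, and GS1b was not called. Their median mean was 1.43, close to the 1.47 of the 8 clones.

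One more MS probe, GEM-046-C12, had values of 2.10, 1.61, 1.74 and 1.34 on hybridizations 1 to 4 and a mean of 1.70 ± 0.32 (SD, n = 4), 3.24-fold. Its read aligns with that of GEM-055-C03, with 122 of 132 aligned bases identical (92.4%), so that the 2 reads are similar but not identical there. Errors of the single-pass reads were not assessed. GEM-055-C03 was lower than GEM-046-C12 on each hybridization, by 0.01 to 0.34 (mean -0.21 ± 0.15, SD, n = 4).

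One clone of new methionine synthesis differed in direction. Cystathionine gamma-synthase, which commits carbon to methionine, had values of -0.66, -0.81, -1.30 and -1.41 for GEM-076-D11, a mean of -1.05 ± 0.37 (SD, n = 4). The ratio was lower in Cx on all 4 hybridizations, by 2.06-fold at the mean, and it was the only one of the 7 neighbouring clones in that direction.

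Dihydrolipoamide dehydrogenase, a subunit that glycine decarboxylase shares with the pyruvate dehydrogenase complex, had values of 0.65, 0.65, 0.45 and 0.70 for GEM-003-E06. Its mean was 0.61 ± 0.11 (SD, n = 4), 1.53-fold. GS1b, a cytosolic glutamine synthetase that re-assimilates ammonium, had values of 1.14, 0.81, 0.44 and 0.34 for GEM-087-B02 and a mean of 0.68 ± 0.37 (SD, n = 4), 1.60-fold. Like PHGDH, it was higher on both hybridizations with Cx in Cy3 than on both with Ox in Cy3. Whether GS1b was called depended on the setting. The robust fit did not call it, nor did the fit to the Ox in Cy3 slides (estimate 0.39, below 1.5-fold). Least squares called it, and the other alternatives were divided. The study listed this clone for the same contrast on these slides, so nothing is read from its calls.

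Enzymes that use SAM or a compound derived from it were also in the list. Phosphoethanolamine N-methyltransferase, which uses SAM to build phosphocholine, had values of 1.48, 2.58, 2.72 and 2.51 for GEM-103-A03, with a mean of 2.32 ± 0.57 (SD, n = 4) and a robust estimate of 2.51. Here hybridization 1 stood far below the other 3, whereas it was the highest for 6 of the 8 methyl-supply clones. Ethylene-forming enzyme, which makes ethylene from a compound derived from SAM, had means of 2.10 ± 0.40 for GEM-054-F12 and 1.43 ± 0.34 for GEM-038-G10 (SD, n = 4 each). Both had their highest value on hybridization 1, at 2.46 and 1.77, and their lowest on hybridization 4, at 1.56 and 1.14.

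**Figure D5:**
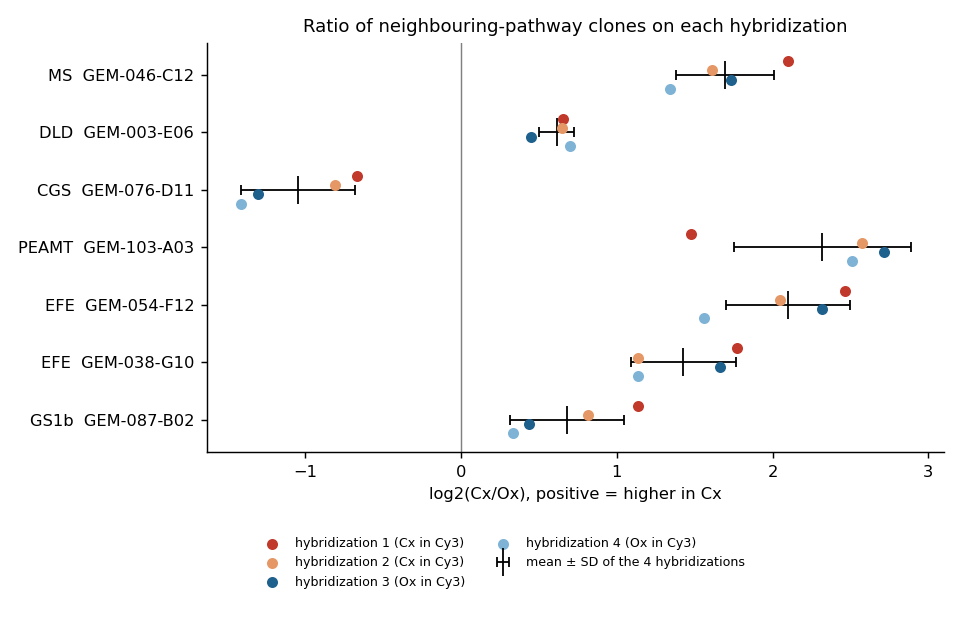
The log2(Cx/Ox) of 7 clones of neighbouring steps on each of the 4 hybridizations (coloured points, x axis), with the mean and SD in black. Cystathionine gamma-synthase (CGS) lies between -1.41 and -0.66, left of 0, while the other 6 lie right of 0, and PEAMT has 1 point at 1.48 apart from the other 3. DLD is dihydrolipoamide dehydrogenase and EFE is ethylene-forming enzyme.

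The values of other named clones were compared with the median of the 8 clones on each hybridization by their root mean square difference over the 4 hybridizations, among 2044 clones. The 5 closest were an alpha-tubulin (GEM-095-G05, 0.12), p-coumarate 3-hydroxylase of the monolignol pathway (GEM-002-C04, 0.18), GEM-093-E12 without similarity to a known sequence (0.22), 6-phosphogluconate dehydrogenase (GEM-054-C09, 0.24) and a beta-tubulin (GEM-036-E07, 0.24). The 8 clones themselves lay between 0.09 for GEM-063-B02 and 1.08 for GEM-005-D11 from that median.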

How the data were processed

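Cx and Ox targets were compared on 4 slides of cDNA microarray 1. The authors deposited log2 ratios of 2910 spots in 8 columns, made, per their methods, with GenePix quantification, normexp background correction and print-tip loess without scaling between arrays, and the labels name R 2.7.1 and limma 2.14.5. Print-tip loess takes the bulk of spots as unchanged, so that ratios are relative to it. The authors' filters on flags and signal were not repeated, no spot had a missing value, and 0 columns were left unused. The direction, log2(Cy5/Cy3), was taken from the study's table of ratios, because the wording of the methods, Cy3 and Cy5, would give the other sign. Spots were named where the mean of the turned columns equalled a clone's ratio in the study's tables to the digits printed, which named 2067 spots and left 841 without a name and 2 with several. The means of named clones therefore equal the study's by construction.

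The copies on a slide were averaged to 4 hybridizations, and log2(Cx/Ox) was fitted in limma 3.58.1 (R 4.3.3) with a robust intercept-only model (at most 200 iterations), with empirical Bayes moderation and Benjamini-Hochberg adjustment across 2910 spots. The dye effect and the differences between slides were fitted by least squares. Values with ± are plain means and SD. Correlations of same-numbered columns' deviations were 0.00, -0.03, -0.02 and -0.01 for trees 1 to 4, so that tree numbers were not used as pairs. Nothing shows that the slides hold separate trees beyond the labels and methods. The p-values of the Cx against Ox fit and of the dye effect measure the spread between these slides. Those of the differences between slides measure the spread between copies alone. Fits were tested on simulated data. Sequences are the study's reads, of which at most 399 bases were used, searched and aligned with Biopython 1.88. The alternatives were another fit, centring, scaling, blocks, leaving out a hybridization, and each dye orientation alone.

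The clones and lists were chosen with earlier results of these data known. Named were the 8 clones, 7 neighbouring clones of the study's list of called clones, and the 5 named clones closest to the median profile of the 8. 1 further clone of this pathway is not reported here.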

Additional observations from a re-analysis of the deposited data

Results flagged for a closer look

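Among the 8 methyl-supply clones and the 7 clones of neighbouring steps, 1 had a hybridization far from the other 3. Phosphoethanolamine N-methyltransferase (GEM-103-A03) had a log2(Cx/Ox) of 1.48 on hybridization 1, while the other 3 lay between 2.51 and 2.72. The gap to the nearest value was 0.832 of the whole range, just past the critical value of Dixon's test for 4 values, which chance alone passes in about 1 of 20 groups. None of the 8 methyl-supply clones passed this limit, the nearest being GEM-006-C05 at 0.65.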

How the results depend on the processing

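Without hybridization 2, and with the slides of Ox in Cy3 alone, 7 of the 8 clones were called higher in Cx. GEM-055-G01 was the clone lost, and 227 and 272 of the 2910 spots were called higher in Cx there. In every other alternative all 8 clones were called. The study chose the clones on this contrast, so nothing is read from these counts. The median of the 8 clones ran between 1.36 and 1.56 over the alternatives. By least squares in place of the robust fit, 284 spots were higher in Cx and 119 higher in Ox, beside 266 and 97. With the tree number as a replicate block, which was also fitted by least squares and on the 8 columns, they were 287 and 130. All 8 clones were called there and their median was 1.47. That setting places the copies on a slide in different blocks and counts them as independent, so that it understates the error. With only the slides of Ox in Cy3, 200 spots were higher in Ox, and the share of calls higher in Cx was 57.6% beside 73.3%. Leaving out a hybridization gave 212 to 281 spots higher in Cx and 65 to 133 higher in Ox. With only the slides of Cx in Cy3, 1043 spots and 7 of the 8 clones differed between slides, and with only those of Ox in Cy3, 1228 spots and 6 clones did, beside 1757 spots and 8 clones with both orientations. The cause was not tested, although each orientation alone holds fewer slides. No spot passed the adjusted limit for a dye effect in the alternatives named for it. The number of arrays limits the precision of every ratio.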
